A study of Mus musculus with 14 samples.

Results

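Phase II conjugation enzymes attach a polar group to foreign and endogenous compounds. They were taken here as all genes whose symbol starts with Ugt1, Ugt2, Gsta, Gstm, Gstt, Gstp, Gsto, Mgst or Sult, with 1 probe per gene, the one with the highest mean signal among those well above background on at least 3 arrays. Of 51 such genes with a probe on the array, 41 could be tested, among 15536 genes with a tested probe in all. The 41 were 10 UDP-glucuronosyltransferases (UGT), 19 cytosolic glutathione S-transferases (GST), 3 microsomal glutathione S-transferases (MGST) and 9 sulfotransferases (SULT). The other 10 (Ugt1a9, Ugt2a1, Sult1e1, Sult2a3, Sult2a4, Sult2a5, Sult2a6, Sult2a7, Sult3a2 and Sult6b1) were well above background on fewer than 3 arrays. A further 15 RefSeq symbols that fit the prefixes had no matched probe.

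The values came from 14 Agilent microarrays, each of total RNA from the colon of 1 female C57BL/6 mouse aged 4 to 6 months on chow diet. Flox mice (GR fl/fl) carried loxP-flanked alleles of Nr3c1, the gene of the glucocorticoid receptor (GR), without Cre. GR iKO mice carried the same alleles with Villin-cre, in which the Villin promoter drives Cre in the intestinal epithelium, so that GR in the other cells of the colon was not targeted. Mice drank regular water, with 4 mice of either genotype, or water with 2.5% dextran sulfate sodium (DSS), a polymer toxic to the epithelium of the colon, for 7 days, with 3 mice of either genotype. Replicates 1, 2, 3 and 4 made up both water groups, replicates 1, 2 and 4 the Flox DSS group, and replicates 1, 3 and 4 the GR iKO DSS group, and values below are listed in that order.

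A level is the log2 processed signal minus the 75th percentile of the same array, so that 0 is the 75th percentile and 1 unit is a doubling. Levels of different probes are not comparable with each other. A difference is a log2 difference between group means, given with its SE, and was called at a Benjamini-Hochberg adjusted p under 0.05 over all 29523 tested probes in limma. Arrays differed in brightness, with a 75th percentile of 261.9 on the dimmest and 1003.6 intensity units on the brightest, and 62.6% to 71.3% of probes were well above background. Nr3c1, the targeted gene, had levels of 1.05, 1.17, 1.18 and 1.38 on the Flox water arrays, 0.36, 0.57, 0.44 and 0.19 on the GR iKO water arrays, 1.27, 1.46 and 1.07 on the Flox DSS arrays and 0.48, 0.45 and 0.37 on the GR iKO DSS arrays. Its GR iKO level was 57.3% of the Flox level on water (exact two-sided permutation test, p = 0.0286, n = 4 and 4) and 56.1% on DSS (p = 0.1, the smallest that an exact test of 3 against 3 allows), and the groups did not overlap. In limma the genotype difference was −0.80 ± 0.10 on water (adjusted p = 0.00923) and −0.83 ± 0.20 on DSS (adjusted p = 0.0906). The call on water was lost under 7 alternatives, with differences of −0.98 to −0.80 and an adjusted p of 0.059 to 0.293. Whether its probe lies in the deleted part was not determined. The epithelial genes Krt8 and Epcam lay between 8.30 and 9.08 and between 4.03 and 5.37 over all arrays, which marks epithelium of any kind. As a check of the colon label, 9 of 10 colonocyte markers and 4 of 5 distal colon position genes could be tested, but so could 7 of 8 small intestine markers.

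As background, UGTs are membrane enzymes of the endoplasmic reticulum that transfer glucuronic acid from UDP-glucuronate. GSTs and MGSTs transfer glutathione to electrophiles, and SULTs transfer sulfate from the donor PAPS. The intestinal epithelium is a known site of all these reactions, which limit uptake of compounds from the gut lumen, and the conjugates leave the cell through ABC transporters. Several of the genes lie in clusters of near-identical copies (the Ugt2b, Gsta, Gstm and Gstp genes), for which a probe may also bind transcripts of a neighbour, and Ugt1a genes share their last exons. Values of single genes of these clusters are therefore uncertain as to which copy was measured.

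RefSeq promoter windows, which run from upstream of the start site to just past it (build GRCm38.p6), were matched for 37 of the 41 genes, in 48 windows. The windows of Ugt2b35, Ugt2b34 and Sult1a1, the genes of the UGT and SULT families with the largest falls, and of Gsta3, whose window held both an antioxidant response element core and a hepatocyte nuclear factor 1 (HNF1) core, are printed 5′ to 3′ on the strand of the gene. Capitals mark the antioxidant response element core TGACNNNGC or the HNF1 core GTTAAT, each searched on both strands and thus also printed as its reverse complement. The windows are chr5:87000610-87000909 on the plus strand, chr5:86906888-86907187 on the minus strand, chr7:126676369-126676668 on the minus strand and chr1:21240335-21240634 on the plus strand.
Ugt2b35: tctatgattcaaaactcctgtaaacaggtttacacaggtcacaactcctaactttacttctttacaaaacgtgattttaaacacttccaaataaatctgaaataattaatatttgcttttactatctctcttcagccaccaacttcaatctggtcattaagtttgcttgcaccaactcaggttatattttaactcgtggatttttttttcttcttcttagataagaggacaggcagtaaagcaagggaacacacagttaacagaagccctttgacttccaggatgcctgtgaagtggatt
Ugt2b34: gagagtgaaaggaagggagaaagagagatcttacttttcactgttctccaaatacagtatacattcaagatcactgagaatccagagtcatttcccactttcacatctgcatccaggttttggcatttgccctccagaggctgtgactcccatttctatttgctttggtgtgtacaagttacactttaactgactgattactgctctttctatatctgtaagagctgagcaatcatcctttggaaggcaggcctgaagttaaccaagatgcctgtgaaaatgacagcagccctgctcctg
Sult1a1: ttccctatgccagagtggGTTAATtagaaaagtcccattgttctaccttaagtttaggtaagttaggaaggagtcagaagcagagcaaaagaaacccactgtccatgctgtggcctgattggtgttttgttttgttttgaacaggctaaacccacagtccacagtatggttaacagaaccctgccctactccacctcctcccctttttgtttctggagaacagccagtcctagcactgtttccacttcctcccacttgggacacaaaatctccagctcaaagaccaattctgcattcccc
Gsta3: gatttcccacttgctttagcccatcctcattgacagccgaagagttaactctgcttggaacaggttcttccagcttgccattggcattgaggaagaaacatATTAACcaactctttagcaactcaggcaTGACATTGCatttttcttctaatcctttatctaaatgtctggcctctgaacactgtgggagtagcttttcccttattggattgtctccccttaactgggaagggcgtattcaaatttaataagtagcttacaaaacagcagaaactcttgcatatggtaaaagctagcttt

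The antioxidant response element core was found in 4 of 48 windows (8.33%), against 12.4% of all 32851 windows of the same length. Its matches were TGACATTGC in Gsta3, TGACCACGC in Gstm5, TGACAAAGC in Gstm7 and TGACCGTGC, on the other strand, in Mgst1. The HNF1 core GTTAAT was in 5 windows (10.4%), of Gsta3, Sult1a1, Sult1d1, Ugt1a1 and Ugt2a3, against 7.1% of all. The dioxin response element core GCGTG was in 12 windows (25%) against 32.4%, and TATAAA in 9 (18.8%) against 13.6%. The palindromic glucocorticoid response element, to which GR binds, was in 3 windows of all and in none of these genes. TGACNNNGC and GCGTG can share bases, as they did in Gstm5, whose match TGACCACGC holds GCGTG on its other strand. A match is only a description of the letters in the window.

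On DSS, more phase II enzymes fell than rose in both genotypes. In Flox mice, 22 of the 41 genes fell and 2 rose, whereas over all tested probes 25.4% were called lower and 21.8% higher. With normexp background correction, 19 of the 41 fell and 8 rose in Flox, while the split over all probes turned from 6438 higher and 7511 lower to 9436 higher and 4826 lower. In GR iKO mice, 23 fell and 4 rose, against 19.8% of probes called lower and 19.1% called higher. The median difference of the 41 genes was −0.84 in Flox and −0.85 in GR iKO, whereas that of all probes was −0.09 and −0.02. A total of 20 genes fell in both genotypes, and 2, Sult4a1 and Sult5a1, rose in both. The share of all probes called in the same direction in both genotypes was not counted, so these 2 counts have no share beside them. All 24 genes called in Flox and all 27 called in GR iKO moved in the same direction on each of the 3 slides that held both treatments of that genotype. This is no separate support, since the slides hold the same arrays and groups that do not overlap fix the direction on each slide. In whole tissue, fewer cells of a type and less RNA per cell cannot be told apart.

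**Figure D1:**
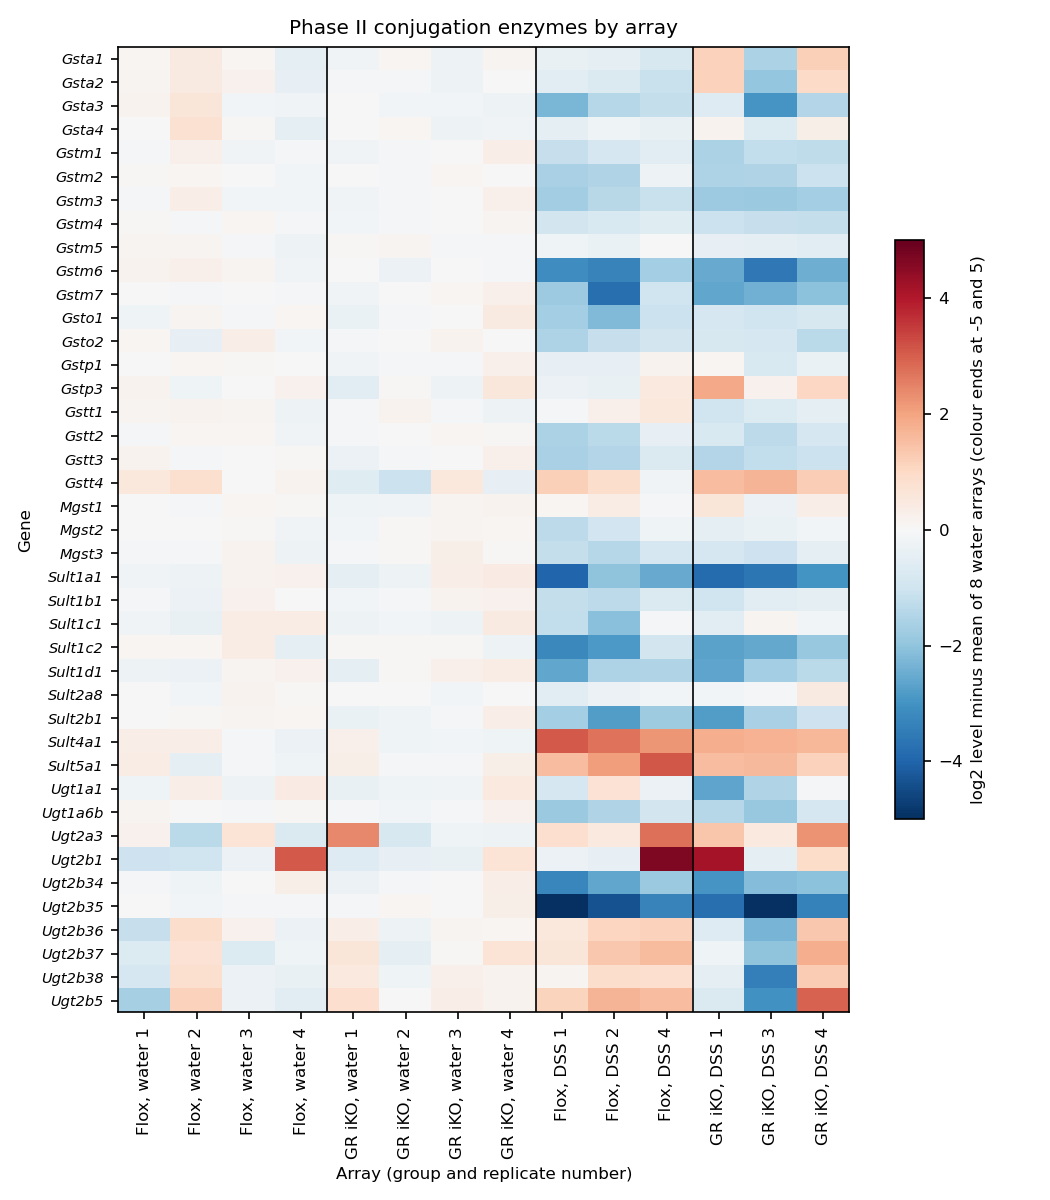
Levels of the 41 genes (rows) on the 14 arrays (columns, by group and replicate number), as the log2 level minus the mean of the 8 water arrays, with blue for lower and red for higher. The rows of Ugt2b34, Ugt2b35, Sult1a1, Gstm6 and Gstm7 are blue on all 6 DSS arrays, Sult4a1 and Sult5a1 are red there, and Gsta1 and Gsta2 are red on GR iKO DSS replicates 1 and 4 and blue on replicate 3.

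**Figure D2:**
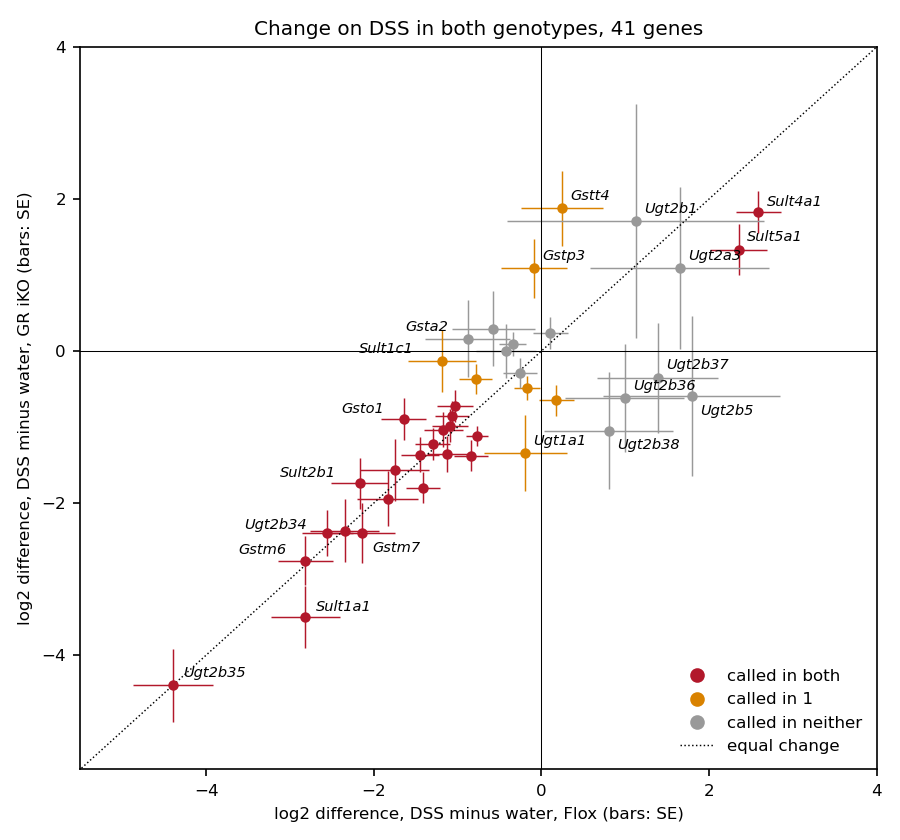
The log2 difference between DSS and water of each of the 41 genes in Flox (horizontal) and GR iKO (vertical), with SE bars, coloured by the genotypes in which it was called. The 20 genes that fell in both lie in the lower left, and Ugt2b35 lies farthest out, at −4.40 and −4.40.

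Among the UGTs, Ugt2b35 and Ugt2b34 fell, Ugt1a6b fell, and the 6 other tested Ugt2 genes did not pass the test in either genotype. Ugt2b enzymes conjugate steroids, bile acids and drugs. Ugt2b35 had levels of 0.62, 0.48, 0.53 and 0.57 on the Flox water arrays, 0.55, 0.74, 0.60 and 0.91 on the GR iKO water arrays, −5.09, −3.73 and −2.71 on the Flox DSS arrays and −3.13, −5.21 and −2.76 on the GR iKO DSS arrays. It was lower on every DSS array than on every water array, with a difference of −4.40 ± 0.48 in Flox (21-fold lower, adjusted p = 2.52e-05, limma) and −4.40 ± 0.48 in GR iKO (21.1-fold lower, adjusted p = 4.23e-05, limma). Its DSS arrays spread more than its water arrays. The size of the fall depended on the processing, with differences over all alternatives of −6.75 to −2.79 in Flox and −5.35 to −3.16 in GR iKO.

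Ugt2b34 was measured at 1.56, 1.47, 1.68 and 1.96 on the Flox water arrays, 1.40, 1.63, 1.70 and 2.01 on the GR iKO water arrays, −1.57, −0.92 and −0.17 on the Flox DSS arrays and −1.28, −0.48 and −0.39 on the GR iKO DSS arrays. Each DSS array lay below each water array, and the difference was −2.55 ± 0.30 in Flox (adjusted p = 4.55e-05, limma) and −2.40 ± 0.30 in GR iKO (adjusted p = 1.19e-04).

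Ugt1a6b encodes an enzyme that conjugates small planar phenols. Its levels were 5.76, 5.62, 5.51 and 5.66 on the Flox water arrays, 5.55, 5.46, 5.52 and 5.82 on the GR iKO water arrays, 3.76, 4.11 and 4.68 on the Flox DSS arrays and 4.19, 3.72 and 4.75 on the GR iKO DSS arrays. The groups did not overlap, and the difference was −1.45 ± 0.23 in Flox (adjusted p = 3.05e-04, limma) and −1.37 ± 0.23 in GR iKO (adjusted p = 6.97e-04). A second, much dimmer probe of Ugt1a6b gave differences of −0.98 and −1.02, both called. Ugt1a1, the bilirubin-conjugating enzyme, differed by −0.19 ± 0.50 in Flox (adjusted p = 0.778) and was called lower in GR iKO at −1.34 ± 0.50 (adjusted p = 0.0493), where its arrays read −6.44, −5.31 and −3.88 against −4.17, −4.02, −3.96 and −3.32 on water and overlapped. It was well above background on 2 of those 3 DSS arrays. Without GR iKO DSS replicate 1, the difference was −0.72 (adjusted p = 0.289).

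The 4 neighbouring genes Ugt2b5, Ugt2b36, Ugt2b37 and Ugt2b38 gave dim signals, and all 4 were lowest on GR iKO DSS replicate 3 and highest on GR iKO DSS replicate 4. For Ugt2b5, the levels were −6.64, −3.84, −5.29 and −5.54 on the Flox water arrays, −4.17, −5.02, −4.65 and −4.84 on the GR iKO water arrays, −3.87, −3.28 and −3.45 on the Flox DSS arrays and −5.73, −8.02 and −2.03 on the GR iKO DSS arrays. The 3 Flox DSS arrays were close to each other, whereas the GR iKO DSS arrays held both the lowest and the highest value of all 14. Differences on DSS in these 4 genes ranged from 0.80 (Ugt2b38) to 1.79 (Ugt2b5) in Flox and from −1.05 (Ugt2b38) to −0.35 (Ugt2b37) in GR iKO, with Ugt2b36 at 1.00 ± 0.71 and −0.62 ± 0.71, and none was called.

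Ugt2b enzymes are abundant in the liver, and liver transcripts also varied between these arrays. The mean level of 6 liver markers relative to the water arrays ranged from 2.12 to 3.61 on the Flox DSS arrays and from −0.81 to 2.42 on the GR iKO DSS arrays, with 5 of the 6 called higher and 1 lower in Flox, and 3 higher and 1 lower in GR iKO. Albumin (Alb), a liver product, was at 1.99, 1.66 and 3.10 on the Flox DSS arrays. On the GR iKO DSS arrays it was at 1.20, −6.47 and 1.82. GR iKO DSS replicate 3 was the lowest of all 14 arrays both in Alb and in Ugt2b5. On GR iKO DSS replicate 1, however, Alb was above all water arrays, whereas Ugt2b5, at −5.73, was below all GR iKO water arrays. Alb was highest on Flox DSS replicate 4 and Ugt2b5 on GR iKO DSS replicate 4. The part of liver transcripts in the Ugt2b signals was not tested. Ugt2b1 and Ugt2a3 were well above background on 3 of the 14 arrays each, and their differences of 1.12 ± 1.54 and 1.65 ± 1.07 in Flox and 1.71 ± 1.54 and 1.09 ± 1.07 in GR iKO were not called. Ugt2a3 was not well above background on any Flox water array, nor Ugt2b1 on any GR iKO water array.

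Among the cytosolic GSTs, 11 of 19 fell and none rose in Flox, and 13 fell and 2 rose in GR iKO. The mu class (Gstm), which acts on a broad range of electrophiles, had negative differences in all 7 tested members in both genotypes, of which 6 were called in Flox and 7 in GR iKO. Gstm6 showed levels of 0.03, 0.14, 0.02 and −0.31 on the Flox water arrays, −0.16, −0.44, −0.12 and −0.18 on the GR iKO water arrays, −3.24, −3.48 and −1.83 on the Flox DSS arrays and −2.65, −3.70 and −2.58 on the GR iKO DSS arrays. No DSS array overlapped a water array, and the difference was −2.82 ± 0.33 in Flox (adjusted p = 3.79e-05, limma) and −2.76 ± 0.33 in GR iKO (adjusted p = 7.19e-05).

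Gstm7 stood at −2.66, −2.70, −2.61 and −2.69 on the Flox water arrays, −2.79, −2.60, −2.54 and −2.37 on the GR iKO water arrays, −4.45, −6.38 and −3.60 on the Flox DSS arrays and −5.21, −5.04 and −4.66 on the GR iKO DSS arrays. It was well above background on all arrays but 1 of the Flox DSS group. Its differences were −2.14 ± 0.40 (adjusted p = 9.26e-04, limma) and −2.39 ± 0.40 (adjusted p = 6.71e-04), and with normexp background correction that in Flox was −0.45 and was not called (adjusted p = 0.1). Without Flox DSS replicate 2, the lowest array, the difference in Flox was −1.36 and was still called.

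Gstm1, a major mu class enzyme, reached 6.47, 6.76, 6.33 and 6.44 on the Flox water arrays, 6.35, 6.40, 6.55 and 6.84 on the GR iKO water arrays, 5.38, 5.66 and 5.93 on the Flox DSS arrays and 4.92, 5.30 and 5.26 on the GR iKO DSS arrays. The 6 DSS arrays were below the 8 water arrays, and the difference was −0.84 ± 0.21 in Flox (adjusted p = 0.00553, limma) and −1.38 ± 0.21 in GR iKO (adjusted p = 3.59e-04). A second Gstm1 probe gave −1.03 and −1.58, both called. In Flox and GR iKO, the differences were −1.41 ± 0.20 and −1.80 ± 0.20 for Gstm3, −1.13 ± 0.24 and −1.36 ± 0.24 for Gstm2, and, for Gstm4, −0.77 ± 0.13 and −1.12 ± 0.13, all called. Gstm5 was called in GR iKO at −0.49 ± 0.15 (adjusted p = 0.0245) and not in Flox at −0.17 ± 0.15 (adjusted p = 0.375).

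**Figure D3:**
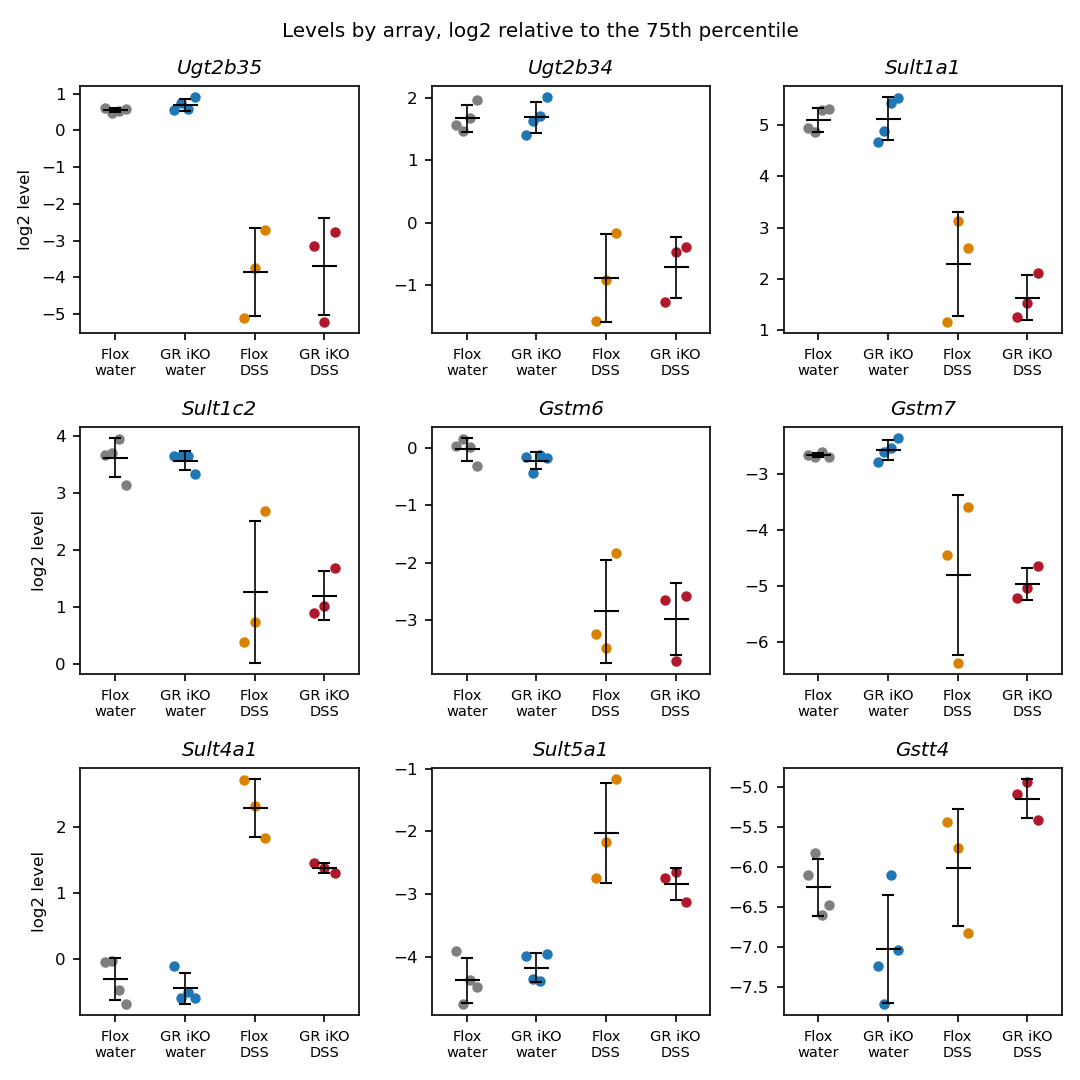
The log2 level of 9 genes, in units above or below the 75th percentile and with a scale of its own in each panel, on each array (points) in the 4 groups, with the group mean and SD as bars. In the first 6 panels every DSS point lies below every water point, and for Sult4a1 and Sult5a1 every DSS point lies above, whereas for Gstt4 the Flox groups overlap.

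The alpha class (Gsta), which reduces lipid peroxides, was split. Gsta3 fell in both genotypes, with levels of 2.67, 3.10, 2.36 and 2.33 on the Flox water arrays, 2.50, 2.37, 2.37 and 2.25 on the GR iKO water arrays, 0.23, 1.07 and 1.29 on the Flox DSS arrays and 1.86, −0.45 and 1.03 on the GR iKO DSS arrays. Its DSS arrays were all below its water arrays, and GR iKO DSS replicate 3 was lowest. Its differences were −1.75 ± 0.41 (adjusted p = 0.00389, limma) and −1.56 ± 0.41 (adjusted p = 0.00967), and a second probe was called lower in both too, at −1.81 in GR iKO. Without GR iKO DSS replicate 3 the difference in GR iKO was −0.93 (adjusted p = 0.0644).

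Gsta1 and Gsta2, whose transcripts are near-identical, were called in neither genotype. Gsta1 had levels of 1.72, 2.06, 1.71 and 1.14 on the Flox water arrays, 1.46, 1.72, 1.36 and 1.77 on the GR iKO water arrays, 1.27, 1.16 and 0.83 on the Flox DSS arrays and 2.76, 0.04 and 2.82 on the GR iKO DSS arrays. Flox DSS replicates 1 and 2 were within the range of the Flox water arrays and replicate 4 below it, whereas in GR iKO replicates 1 and 4 were above all 8 water arrays and replicate 3 below all of them. Gsta2 stood likewise in GR iKO, with 1.47, −1.60 and 1.26 on the GR iKO DSS arrays against 0.21, 0.26, 0.07 and 0.33 on the GR iKO water arrays, whereas its Flox DSS arrays, at −0.20, −0.41 and −0.78, lay below all Flox water arrays, at 0.44, 0.77, 0.54 and −0.08. With all arrays, the differences were −0.57 ± 0.49 and −0.88 ± 0.51 in Flox, and those in GR iKO were 0.30 ± 0.49 and 0.16 ± 0.51. Without GR iKO DSS replicate 3 they were 1.21 ± 0.32 (adjusted p = 0.0135, limma) and 1.15 ± 0.29 (adjusted p = 0.0118), and Gsta2 in Flox was then called lower at −0.88 ± 0.25 (adjusted p = 0.0119). In GR iKO the calls of both genes thus depended on 1 array. Gsta2 in Flox was also called lower with 1 weight per array and with only the arrays compared. Gsta4, which acts on the lipid aldehyde 4-hydroxynonenal, differed by −0.42 ± 0.35 and 0.01 ± 0.35 and was not called.

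In the theta class (Gstt), Gstt3 read 4.36, 4.09, 4.15 and 4.21 on the Flox water arrays, 3.88, 4.10, 4.16 and 4.41 on the GR iKO water arrays, 2.57, 2.70 and 3.45 on the Flox DSS arrays and 2.72, 2.94 and 3.08 on the GR iKO DSS arrays, with no overlap between treatments. The difference was −1.30 ± 0.21 in Flox (adjusted p = 4.07e-04, limma) and −1.22 ± 0.21 in GR iKO (adjusted p = 9.09e-04), and Gstt2 fell in both, at −1.09 ± 0.22 and −0.98 ± 0.22.

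Gstt1 gave −1.03, −0.99, −1.06 and −1.43 on the Flox water arrays, −1.26, −1.02, −1.22 and −1.42 on the GR iKO water arrays, −1.26, −0.92 and −0.65 on the Flox DSS arrays and −2.16, −1.84 and −1.63 on the GR iKO DSS arrays. Only the GR iKO DSS arrays stood apart, below the other 11 arrays, and Gstt1 was called in GR iKO at −0.65 ± 0.20 (adjusted p = 0.0253, limma) but not in Flox at 0.18 ± 0.20 (adjusted p = 0.498). Without GR iKO DSS replicate 1 the difference was −0.51 (adjusted p = 0.114), and without replicate 3 it was not called either (adjusted p = 0.056).

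Gstt4 was dim throughout, with measured values of −6.10, −5.83, −6.61 and −6.48 on the Flox water arrays, −7.24, −7.71, −6.10 and −7.04 on the GR iKO water arrays, −5.43, −5.76 and −6.83 on the Flox DSS arrays and −5.08, −4.94 and −5.42 on the GR iKO DSS arrays. It was well above background on 2 Flox water arrays, 2 GR iKO DSS arrays and none of the others. It thus passed the filter only with arrays of the group in which it was called higher. With each water value raised to at least the lowest signal well above background, the GR iKO DSS level was 1.63-fold that on water. This is not a strict minimum, since not every DSS array in it was well above background and normexp gave a smaller difference. The fitted difference was 1.88 ± 0.49 (adjusted p = 0.0102, limma). That call was lost with quantile normalization (1.67, adjusted p = 0.0522), in the deposited value table (1.64, adjusted p = 0.0505) and with spike-in scaling (0.92, adjusted p = 0.262), and with normexp the difference was 0.59 and was called. In Flox the difference was 0.25 ± 0.49 (adjusted p = 0.713).

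In the omega class, Gsto1, which reduces dehydroascorbate and protein thiols, was at 6.27, 6.62, 6.41 and 6.56 on the Flox water arrays, 6.13, 6.38, 6.48 and 6.91 on the GR iKO water arrays, 4.78, 4.27 and 5.40 on the Flox DSS arrays and 5.64, 5.46 and 5.65 on the GR iKO DSS arrays. All DSS arrays were below all water arrays, with a difference of −1.65 ± 0.27 in Flox (adjusted p = 4.15e-04, limma) and −0.89 ± 0.27 in GR iKO (adjusted p = 0.0203). The Flox DSS arrays were lower than the GR iKO DSS arrays, but this genotype difference of 0.77 was not called. The smallest adjusted p of the omega class between genotypes on DSS was 0.273 (limma). Gsto2 fell in both, at −1.17 ± 0.23 and −1.03 ± 0.23, but with normexp background correction the difference in Flox was −0.48 and was not called (adjusted p = 0.0581).

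In the pi class, Gstp1 was bright on every array, at 6.80, 6.86, 6.82 and 6.77 on the Flox water arrays, 6.59, 6.66, 6.70 and 7.01 on the GR iKO water arrays, 6.35, 6.36 and 6.95 on the Flox DSS arrays and 6.89, 6.03 and 6.44 on the GR iKO DSS arrays, and its groups overlapped. Its difference was −0.26 ± 0.20 in Flox (95% interval −0.69 to 0.18) and −0.29 ± 0.20 in GR iKO (−0.72 to 0.15), and neither Gstp1 probe was called. Gstp3 was called higher in GR iKO at 1.09 ± 0.39 (adjusted p = 0.0433), with −1.51, −3.17 and −2.39 on DSS against −3.92, −3.33, −3.66 and −2.86 on water, and differed by −0.09 ± 0.39 in Flox. Replicate 3 lay within the water range, and without replicate 1 the difference was 0.66 (adjusted p = 0.231).

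The 3 MGSTs are membrane proteins that also act in leukotriene and lipid peroxide metabolism. Mgst2, which can make leukotriene C4, was at 6.07, 6.02, 6.09 and 5.87 on the Flox water arrays, 5.93, 6.09, 6.19 and 6.14 on the GR iKO water arrays, 4.74, 5.10 and 5.83 on the Flox DSS arrays and 5.54, 5.71 and 5.90 on the GR iKO DSS arrays. It was lower on all 3 Flox DSS arrays than on any water array, at −0.79 ± 0.19 (adjusted p = 0.00556, limma), and differed by −0.37 ± 0.19 in GR iKO (adjusted p = 0.157), where the groups did not overlap either. Without Flox DSS replicate 1 the difference in Flox was −0.54 (adjusted p = 0.0689).

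Mgst3 measured 4.49, 4.48, 4.75 and 4.31 on the Flox water arrays, 4.47, 4.65, 4.86 and 4.65 on the GR iKO water arrays, 3.40, 3.16 and 3.75 on the Flox DSS arrays and 3.72, 3.53 and 4.15 on the GR iKO DSS arrays. It was lower on every DSS array than on every water array and differed by −1.07 ± 0.20 in Flox (adjusted p = 9.78e-04, limma) and −0.85 ± 0.20 in GR iKO (adjusted p = 0.00528). Mgst1 did not pass the test with either of 2 probes, and its main probe differed by 0.11 ± 0.21 (95% interval −0.35 to 0.56) and 0.23 ± 0.21 (−0.22 to 0.69).

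Among the SULTs, 6 of 9 fell and 2 rose in Flox, and 5 fell and 2 rose in GR iKO. Sult1a1, the main phenol sulfotransferase, had levels of 4.95, 4.88, 5.29 and 5.33 on the Flox water arrays, 4.67, 4.88, 5.44 and 5.53 on the GR iKO water arrays, 1.16, 3.12 and 2.60 on the Flox DSS arrays and 1.26, 1.52 and 2.11 on the GR iKO DSS arrays. All 8 water arrays lay above all 6 DSS arrays. The difference was −2.82 ± 0.41 in Flox (7.05-fold lower, adjusted p = 1.77e-04, limma) and −3.50 ± 0.41 in GR iKO (11.3-fold lower, adjusted p = 6.70e-05).

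Sult1c2 stood at 3.67, 3.70, 3.94 and 3.13 on the Flox water arrays, 3.64, 3.64, 3.65 and 3.32 on the GR iKO water arrays, 0.38, 0.73 and 2.68 on the Flox DSS arrays and 0.90, 1.01 and 1.68 on the GR iKO DSS arrays. Flox DSS replicate 4 was nearest to the water arrays without reaching them. The differences were −2.35 ± 0.41 (adjusted p = 6.62e-04, limma) and −2.37 ± 0.41 (adjusted p = 9.20e-04). Sult2b1, a sulfotransferase of cholesterol and other 3-hydroxysteroids, fell in both, at −2.17 ± 0.34 and −1.74 ± 0.34, and Sult1d1, which acts on catecholamines, at −1.84 ± 0.36 and −1.94 ± 0.36. Sult1b1, which sulfates thyroid hormones and phenols, fell at −1.03 ± 0.21 and −0.73 ± 0.21, and its second probe gave −1.43 and −1.15.

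Sult1c1 was called in Flox at −1.19 ± 0.41 (adjusted p = 0.0306, limma) and not in GR iKO at −0.13 ± 0.41 (adjusted p = 0.826). Its Flox DSS arrays read −2.67, −3.56 and −1.56 and overlapped the water arrays, at −1.62, −1.83, −1.10 and −1.09. Without Flox DSS replicate 2 the difference was −0.70 (adjusted p = 0.256), and the call was also lost without Flox water replicate 3 or 4 or Flox DSS replicate 1. Sult2a8 differed by −0.34 ± 0.16 and 0.09 ± 0.16 and was not called.

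The genes that rose in both genotypes were Sult4a1, a sulfotransferase best known from neurons and without a known strong activity, and Sult5a1. Sult4a1 had levels of −0.04, −0.02, −0.46 and −0.67 on the Flox water arrays, −0.10, −0.58, −0.49 and −0.59 on the GR iKO water arrays, 2.71, 2.33 and 1.84 on the Flox DSS arrays and 1.46, 1.39 and 1.31 on the GR iKO DSS arrays. All DSS arrays were above all water arrays, by 2.59 ± 0.27 in Flox (6.02-fold, adjusted p = 2.07e-05, limma) and 1.83 ± 0.27 in GR iKO (3.55-fold, adjusted p = 3.39e-04), and a second probe gave 2.56 and 1.86.

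Sult5a1 showed −3.90, −4.75, −4.37 and −4.48 on the Flox water arrays, −3.99, −4.35, −4.39 and −3.96 on the GR iKO water arrays, −2.74, −2.16 and −1.17 on the Flox DSS arrays and −2.74, −2.65 and −3.13 on the GR iKO DSS arrays. It too separated the treatments, by 2.35 ± 0.34 (adjusted p = 1.61e-04, limma) and 1.33 ± 0.34 (adjusted p = 0.00815). Both rises depended on the scaling: with arrays scaled on 8 spike-in probes, the median of all probes moved to −2.44 in Flox and −0.98 in GR iKO, and neither gene was called in either genotype. Relative to that median both genes were still higher.

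The rest of the conjugation pathway was taken from lists of genes outside the families. Their counts stand beside 25.4% of all probes called lower and 21.8% higher in Flox, and 19.8% and 19.1% in GR iKO. Of 6 tested genes of sulfate donor supply, 5 fell in Flox and 2 in GR iKO, and none rose. Papss1 and Papss2 make PAPS, the donor for all SULTs. Papss1 fell, at −1.60 ± 0.19 in Flox (adjusted p = 5.29e-05, limma) and −1.95 ± 0.19 in GR iKO (adjusted p = 2.52e-05), and Papss2 at −1.02 ± 0.21 and −0.64 ± 0.21. The sulfate transporter Slc26a2 was called in Flox at −1.33 ± 0.43 and not in GR iKO at −0.75 ± 0.43.

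Of 4 tested genes of UDP-glucuronate supply, 1 fell and 1 rose in either genotype. Ugdh, which makes UDP-glucuronate, fell, at −1.16 ± 0.27 and −1.57 ± 0.27 (adjusted p = 0.00377 and 7.96e-04, limma). Slc35d1, which carries it into the endoplasmic reticulum, rose by 2.87 ± 0.38 and 2.33 ± 0.38.

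Of 15 genes of glutathione supply and recycling, 2 rose and 3 fell in Flox, and 7 rose and 2 fell in GR iKO. Ggt5 and Ggt1, which break down extracellular glutathione, rose in both, Ggt5 by 2.38 ± 0.18 and 2.36 ± 0.18 and Ggt1 by 2.97 ± 0.80 and 2.31 ± 0.80. Ggt6 fell in both, at −1.34 ± 0.29 and −1.35 ± 0.29. Slc7a11, the cystine carrier, was called in GR iKO at 2.59 ± 0.66 (adjusted p = 0.00834, limma), with levels of 0.05, −2.65 and −1.73 on DSS against −3.60, −3.30, −4.53 and −4.69 on water, and not in Flox at −0.67 ± 0.66. Chac1, which degrades glutathione in the cell, was called in GR iKO at 2.27 ± 0.61 and not in Flox at 1.55 ± 0.61. No gene of any of these lists was called in the interaction or between genotypes.

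Of 9 ABC transporters that export compounds from the cell, not all of them conjugates, 4 fell and 1 rose in Flox. In GR iKO 4 fell and 2 rose. Abcb1a fell in both genotypes, at −2.20 ± 0.56 in GR iKO, as did Abcc6, at −1.43 ± 0.44 and −2.72 ± 0.44, and Abcg2, at −0.77 ± 0.19 and −1.03 ± 0.19, whereas Abcc5 rose by 1.81 ± 0.18 and 1.51 ± 0.18. Of 6 genes that remove conjugates, 1 fell and 1 rose in Flox, and 2 rose in GR iKO. Of 14 other phase II enzymes, 6 fell and 3 rose in Flox, and 5 fell and 3 rose in GR iKO, the rises being near the shares of all probes called higher. Among them were Acsm3, an acyl-CoA synthetase, which fell, at −3.82 ± 0.41 and −3.29 ± 0.41, and Nnmt, the nicotinamide methyltransferase, which rose by 2.79 ± 0.27 and 2.02 ± 0.27.

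The transcription factor NRF2 induces many GSTs through the antioxidant response element. Of 19 genes outside the families that it also regulates, 4 rose and 5 fell in Flox, near the shares of all probes. In GR iKO 8 rose and 2 fell. Slc7a11, Gclc, Gclm and Gsr are also in the list of glutathione supply and recycling, so these lists are not separate. Hmox1 rose by 2.26 ± 0.23 and 3.13 ± 0.23, whereas Nqo1, a quinone reductase, fell, at −1.70 ± 0.28 and −1.88 ± 0.28. Txnrd1 was called in GR iKO at 1.24 ± 0.18 and not in Flox at 0.31 ± 0.18. Of 17 xenobiotic and epithelial transcription factors, 6 fell and 1 rose in Flox, and 5 fell and 4 rose in GR iKO. Cdx1, an intestinal epithelial factor, fell, at −2.60 ± 0.26 and −1.59 ± 0.26 and Vdr, the vitamin D receptor, at −1.61 ± 0.41 and −1.54 ± 0.41, while Hnf4a and Nr1i2, the xenobiotic receptor PXR, were called in Flox at −1.17 ± 0.19 and −1.15 ± 0.21 and not in GR iKO at −0.30 ± 0.19 and −0.29 ± 0.21.

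**Figure D4:**
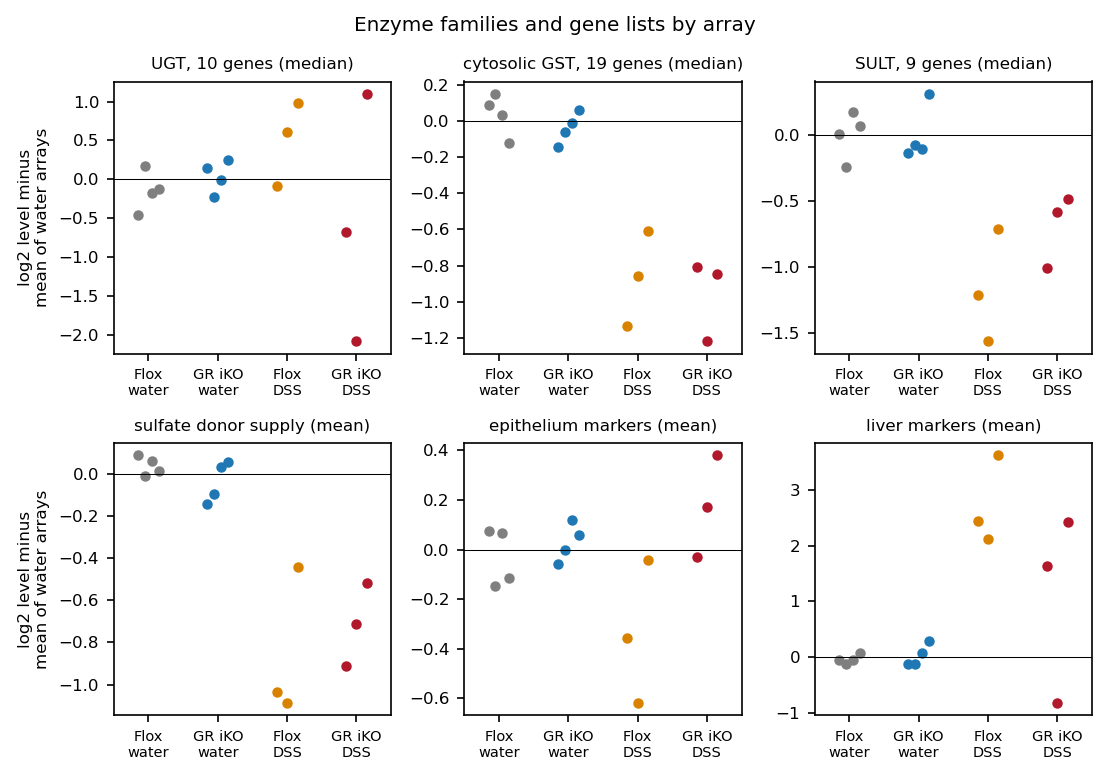
Levels on each array (points) relative to the mean of the 8 water arrays, as the median over the UGT, cytosolic GST and SULT genes and the mean over the genes of sulfate donor supply, epithelium and liver markers, by group. The GST, SULT and sulfate donor values are below 0 on all 6 DSS arrays, whereas the epithelium values range from −0.62 to 0.38 there.

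Other cell types changed on the same arrays. Of 9 markers of all epithelium, 4 fell and 1 rose in Flox, and none fell and 1 rose in GR iKO. Their mean level relative to water was between −0.62 and −0.04 on the Flox DSS arrays and between −0.03 and 0.38 on the GR iKO DSS arrays. Of 9 colonocyte markers, 2 fell and 1 rose in both genotypes. All 7 fibroblast markers rose in both, 6 of 7 neutrophil markers rose in Flox and 7 of 7 in GR iKO, and 7 of 8 smooth muscle markers rose in Flox against 1 of 8 in GR iKO. Of 8 macrophage markers 6 rose in Flox and 7 in GR iKO, of 6 B and plasma cell markers 5 fell in Flox and 2 in GR iKO, and of 7 goblet cell markers 2 fell in Flox and none was called in GR iKO. Both tested genes of proximal colon position rose in both genotypes, with median differences of 2.08 and 1.32, and of 4 genes of distal position 1 fell in both. Exocrine pancreas markers varied between arrays on water as well, from −5.48 to 3.37, with no call. The part of these cell types, and of the position along the colon, in the enzymes' falls was not tested.

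Genotype was compared to ask whether loss of epithelial GR altered these enzymes. On water, none of the 41 genes was called (limma), against 0.0237% of all probes. An unadjusted p under 0.05 was reached by 1 of the 41 and by 979 of all 29523 probes. The median difference of the 41 was −0.01, and for 34 of them the 95% interval lay within 1 log2 unit of 0. The smallest p was that of Gstt4, at −0.77 ± 0.30 (adjusted p = 1.000), which was not well above background on any GR iKO water array, followed by Mgst3 at 0.15 ± 0.12 and Ugt2b5 at 0.66 ± 0.64.

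On DSS, again none of the 41 was called (limma), against 0.0203% of all probes. The unadjusted p was under 0.05 for 5 of the 41 and for 5252 of all 29523 probes. The intervals were wider, with a median of 0.94 on either side of the estimate against 0.44 on water, and 13 of 41 lay within 1 log2 unit of 0. Gstt1 was lower on all GR iKO than on all Flox DSS arrays, at −0.93 ± 0.26 (adjusted p = 0.111), as was Sult4a1, at −0.91 ± 0.35 (adjusted p = 0.206). Gstm4, with levels of −0.71, −0.84, −0.68 and −0.81 on the Flox water arrays, −0.92, −0.85, −0.74 and −0.62 on the GR iKO water arrays, −1.68, −1.52 and −1.38 on the Flox DSS arrays and −1.86, −1.91 and −1.94 on the GR iKO DSS arrays, differed by −0.38 ± 0.17 (adjusted p = 0.261). All 3 had the same sign on both slides that held DSS arrays of both genotypes. That follows from their groups not overlapping and adds no support. With all arrays, the genotype differences of the Gsta genes ran from −0.05 to 0.84 (smallest adjusted p = 0.556, limma). Only without GR iKO DSS replicate 3 were Gsta1 and Gsta2 called higher in GR iKO. They then differed by 1.70 ± 0.38 (adjusted p = 0.0454) and 1.83 ± 0.35 (adjusted p = 0.0347). Of all 29523 probes, 732 were called without that array, against 6 with it.

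**Figure D5:**
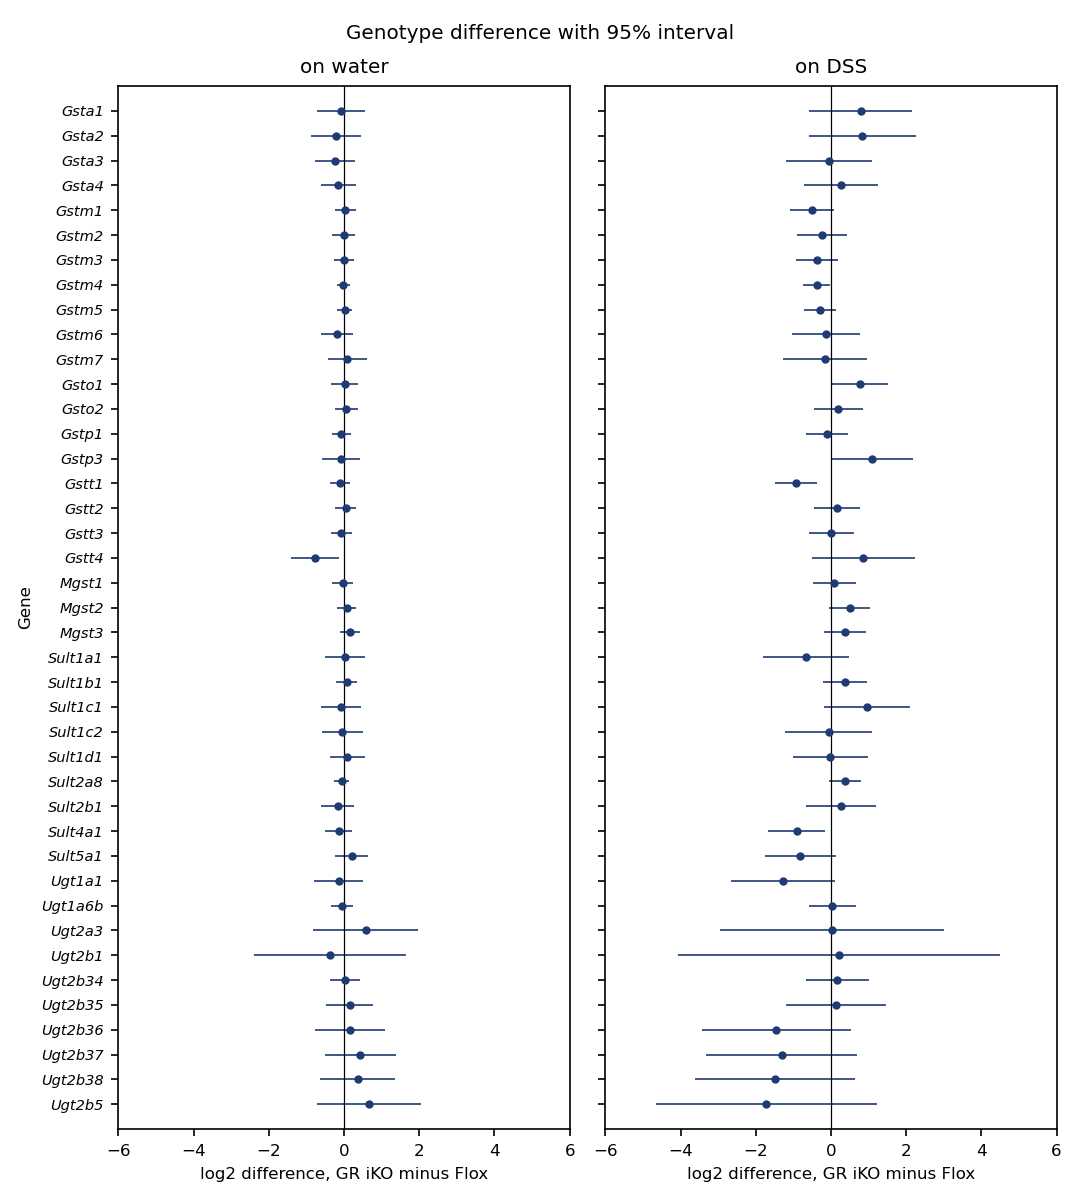
The log2 difference between GR iKO and Flox of each of the 41 genes on water (left) and on DSS (right), as points with 95% intervals. No gene was called in either panel, and the intervals are wider on DSS.

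The response to DSS was compared between genotypes by the interaction, the DSS difference in GR iKO minus that in Flox. None of the 41 genes was called (limma), and 0% of all probes were. The unadjusted p was under 0.05 for 2 of the 41 and for 4389 of all 29523 probes. The smallest p were those of Gstt1 at −0.83 ± 0.29 (adjusted p = 0.222), Gstt4 at 1.63 ± 0.70 (adjusted p = 0.306) and Sult5a1 at −1.02 ± 0.48 (adjusted p = 0.342). The 7 genes called in 1 genotype only (Mgst2 and Sult1c1 in Flox, and Gstm5, Gstp3, Gstt1, Gstt4 and Ugt1a1 in GR iKO) are thus not shown to respond differently. The 95% interval of this term extended a median of 1.03 to either side of the estimate.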

How the data were processed

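Total RNA (500 ng per mouse) was labelled with Cy3 and hybridised to Agilent 4x44K whole mouse genome arrays. The authors read the spots with Agilent Feature Extraction (version 12.0.0.7, grid drawn on mm9) and deposited processed intensities that were not scaled between arrays. A table of log2 values of these arrays was deposited too, with the same median and the same 75th percentile on every array and a normalization that is not stated, and it served as an alternative. Partek 6.6 is named in the submitters' processing notes without a role. How the study tested its arrays is given in a source not used here.

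Of 45018 spots, 1639 control spots were left out, outlier flags were set to missing and spots of a probe averaged, giving 41174 probes. Log2 processed intensities were scaled on the 75th percentile of each array. A total of 28215 of 29245 probes with an accession matched 1 symbol of a GRCm38.p6 gene table. The 29523 probes well above background on at least 3 arrays were fitted with limma 3.58.1 in R 4.3.3 as group means over all 14 arrays, with 1 weight for water (1.69) and 1 for DSS arrays (0.497), since DSS arrays varied more. Tests were two-sided, with Benjamini-Hochberg adjustment, in 5 comparisons, and the script was tested on simulated data. The number of arrays limits the precision. Nr3c1 was tested with an exact permutation test. The normexp alternative (offset 50) used median spot and background signals, since a mean spot signal was not among the columns used.

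The genes and lists were chosen with earlier results of these data known. Every tested gene is given with a value. Values on all arrays are given for the 5 largest rises and falls among called genes with separate groups. They are also given for the gene with the brightest probe in each family on Flox water arrays. The 3 smallest p of each genotype comparison and the interaction were treated likewise. Gsta1 and Gsta2 were added outside these rules, after their values were seen. From the gene lists, at most 6 called genes were named per list. Alternatives covered the background correction, the scaling, the filter on dim probes, the weights, the arrays fitted, the moderation, slide and replicate number as blocks, the mean over the probes of a gene, and each array left out.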

Additional observations from a re-analysis of the deposited data

Results flagged for a closer look

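In the water groups, 82 sets of 4 arrays were examined for 1 array far from the other 3, and 2 were found, where chance gives about 1 in 20. Gstt1 was at −1.43 on Flox water replicate 4, below the other 3 Flox water arrays. Sult1c2 was at 3.32 on GR iKO water replicate 4, below the other 3 GR iKO water arrays. Groups of 3 DSS arrays were not examined in this way.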

How the results depend on the processing

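The counts of genes that rose or fell on DSS were recomputed under 14 other settings and without each array. Falls were called for 19 to 33 genes in Flox and 18 to 25 in GR iKO, and without single arrays for 19 to 23 and 18 to 23. The highest counts, 33 and 25, came with spike-in scaling, where 25151 and 12533 of all 29523 probes were called lower. Rises without single arrays numbered 2 in Flox and 3 to 6 in GR iKO. Rises in Flox numbered 8 with normexp, which moved the median of all probes from −0.09 to 0.22 (Gstt4, Ugt2a3, Ugt2b5, Ugt2b36, Ugt2b37 and Ugt2b38 added), 4 with 1 weight per array and 4 with only the arrays compared (Ugt2b5 and Ugt2b37 added in both), and 0 with spike-in scaling. In GR iKO they numbered 2 with quantile normalization and 2 in the deposited value table (Sult4a1 and Sult5a1), and 0 with spike-in scaling. With spike-in scaling the medians of the 41 genes were −3.20 and −1.81, against −2.44 and −0.98 over all probes. Of the 24 genes called in Flox, 17 were called under every alternative, as were 17 of 27 in GR iKO. Genotype on water gave 0 genes throughout. Genotype on DSS gave 3 genes with a shared spread (Gstm4, Gstt1 and Sult4a1), 5 with 1 weight per array (Gsto1, Gstp3, Mgst2, Sult2a8 and Sult4a1) and 0 to 2 without single arrays, with 2 (Gsta1 and Gsta2) only without GR iKO DSS replicate 3. Of all 29523 probes, 3903 were called with a shared spread, 4455 with 1 weight per array and 732 without that replicate. The interaction gave 9 with spike-in scaling (all higher), 2 with 1 weight per array (Gstp3 and Sult2a8) and 0 without any single array. Of all probes, the interaction was called for 8812 with spike-in scaling and 2956 with 1 weight per array. The cause of these changes was not tested.

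Single arrays ended these calls: in Flox, Gstm1 without DSS replicate 1 (−0.70, adjusted p = 0.064), and in GR iKO, Gstm5 without DSS replicate 3 (−0.48, adjusted p = 0.0591) or 4 (−0.46, adjusted p = 0.095), Gsto1 without replicate 3 (−0.83, adjusted p = 0.0676) or 4 (−0.93, adjusted p = 0.0607) and Sult1b1 without replicate 1 (−0.57, adjusted p = 0.0861), besides those given above. Gstp3 and Ugt1a1, close to the threshold, lost their call in GR iKO without most single arrays.

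Spike-in scaling reversed the sign of Sult5a1 on DSS in Flox (−0.004), of Mgst3 by genotype on water (−0.023), of Gstt1 (0.30), Sult4a1 (0.32), Gstm4 (0.85) and Nr3c1 (0.39) by genotype on DSS, and of Gstt1 (0.58) and Sult5a1 (0.38) in the interaction. Normexp reversed Gstt4 in the interaction (−0.061). Same-numbered arrays had a median correlation of 0.10 (18 pairs, −0.23 to 0.31) against −0.02 for other pairs. A correlation over 0.1 was found in 9 of these 18 and in 11 of 55 other pairs. Since they did not deviate together throughout, the numbers were not taken as pairs in the main fit. With a replicate block, 22 genes fell and 2 rose in Flox, 23 fell and 4 rose in GR iKO, and 0 were called in the other comparisons. Nr3c1 on water was then not called at the same difference (−0.80, adjusted p = 0.169). Same-slide arrays had a median correlation of 0.09 (18 pairs) against −0.03 for other pairs. With slide as a block, 22 genes fell and 3 rose in Flox (Ugt2a3 added), 23 fell and 4 rose in GR iKO, 0 were called in the other comparisons, and Nr3c1 on water was not called (−0.80, adjusted p = 0.152).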
